A study of Mus musculus with 6 samples.

Results

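The transforming growth factor beta (TGF-beta) and bone morphogenetic protein (BMP) family, with its receptors, Smads and secreted regulators, was examined in mouse carotid body against adrenal medulla. Members were taken by symbol from the array annotation, with probe sets that carried 1 symbol, and for each gene the probe set with the highest mean of the 6 arrays was used. This gave 57 genes of the 18193 measured. Carotid body and adrenal medulla samples, 3 of each, came from untreated adult C57/BL6 mice. Each carotid body sample was a pool of 18 carotid bodies and each adrenal medulla sample a pool of 10 medullas, from 10 mice. Both tissues were taken from each of 3 cohorts, and samples with 1 number share a cohort. The carotid body senses arterial oxygen at the fork of the carotid artery, and the adrenal medulla is the inner, catecholamine-secreting part of the adrenal gland.

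Ligands of this family are secreted dimers. They bring type I and type II receptor kinases together at the cell surface, and the type I receptor then phosphorylates receptor-activated Smads, which enter the nucleus with the common Smad, Smad4. TGF-betas and activins act mainly through Smad2 and Smad3, and BMPs through Smad1, Smad5 and Smad9. Smad6 and Smad7 are induced by the pathway and inhibit it. Latent TGF-beta binding proteins hold TGF-beta in the matrix, and antagonists such as noggin, gremlin and follistatin trap ligands outside the cell. In the embryo, BMPs from the dorsal aorta direct neural crest cells to the sympathoadrenal lineage, from which some of the chromaffin cells of the medulla come.

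The values are log2 intensities, and differences are carotid body minus adrenal medulla. A gene was called at a limma adjusted p under 0.05 together with a difference of at least 2-fold. On this scale the levels of different genes cannot be compared, since each probe set has its own brightness. In these pools, fewer cells of a type and less RNA per cell cannot be told apart. Fibroblast and matrix markers were higher in carotid body in 12 of 12 genes, smooth muscle and pericyte markers in 9 of 11, Schwann and type II glia markers in 7 of 8, endothelial markers in 3 of 10, and macrophage and lymphocyte markers in 2 of 9. The summed level of the fibroblast markers (log2 of the sum of linear values) was 15.14 to 15.51 in carotid body, against 12.39 to 12.94 in adrenal medulla. Adrenal cortex markers were lower in carotid body in 9 of 10 genes, with a summed level of 14.82 in carotid body array 1, 10.56 and 10.07 in carotid body arrays 2 and 3, and 16.06 to 16.47 in adrenal medulla. Chromaffin and glomus cell markers were lower in 7 of 11, with Th, tyrosine hydroxylase, among them. The labels give no sex, and the X-linked Xist was 8.84 to 10.96 in carotid body, against 4.45 to 5.6 in adrenal medulla. Of the 4 measured sex-linked genes, Xist was the only one called, and the rest are Y-linked. At an adjusted p under 0.05 alone, 2 of the 4 were lower in carotid body, and the lowest difference was -0.87. For the Gapdh controls, 3' minus 5' signal, which grows as labelled RNA shortens, was 0.59 to 1.45 in carotid body, against 0.13 to 0.61 in adrenal medulla. The part of cell composition, sex and RNA quality in any difference below was not tested.

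More members were higher in carotid body than lower. Of the 57, 14 were called higher (24.6%) and 2 lower (3.51%), where 5.91% of all genes were called higher and 6.08% lower. Median-centred arrays gave 12 and 4, at a shift of -0.115 in the median of all genes. At an adjusted p under 0.05 with no fold threshold, 21 were higher and 6 lower, where 10.9% of all genes were higher and 16.5% lower. The median difference was 0.19 over the members and -0.04 over all genes. Bmp5, Fst, Bmp2, Fstl1, Ltbp1 and Gdf10 were higher by more than 4-fold. All 16 called members had the same direction in each of the 3 cohorts, and in none of them did the tissues overlap. These same arrays gave the calls, so neither point is separate support for them. Called or not, 33 of the 57 members had tissues that did not overlap, as did 43.9% of all genes. The mean of 12 members lay under the median of probe set means, 5.28, and none of these 12 was called. The table used here has no detection calls, so whether these dim genes were expressed is not known.

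**Figure D1:**
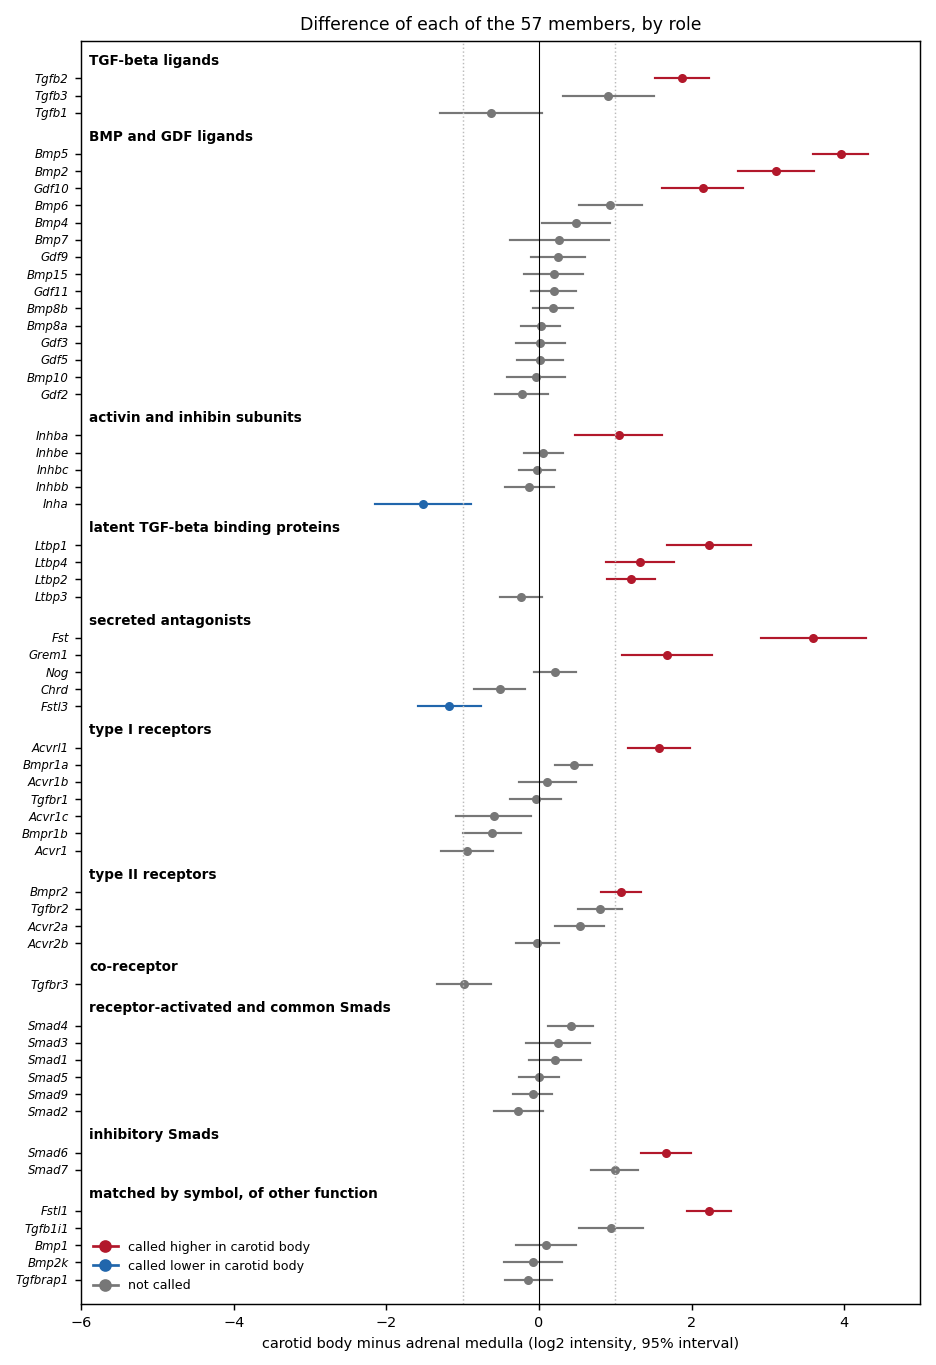
Difference between carotid body and adrenal medulla for each of the 57 members, grouped by role, in log2 intensity with 95% intervals (limma, 3 arrays per tissue). Red points are the 14 members called higher in carotid body and blue points the 2 called lower. Dotted lines mark 2-fold.

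Of the 15 BMP and GDF ligands, 3 were called higher in carotid body and 0 lower. Bmp5 was 8.26, 8.41 and 8.78 in carotid body, against 4.51, 4.65 and 4.45 in adrenal medulla. The 3 carotid body arrays lay far above the adrenal medulla arrays, whose values were under the median of probe set means. The difference was 3.95 ± 0.16 (SE; adjusted p = 1.54e-05). Bmp5, Grem1, Ltbp2, Chrdl1, Id4 and Msx1 averaged under that median in adrenal medulla, a level not shown to be above background, so no exact fold is given for them and their differences may be lower bounds. A dimmer probe set of Bmp5 was also called, at 1.26, and the dimmest gave 0.46. Bmp5 encodes a BMP that acts in skeletal and soft tissue development.

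Bmp2 was 11.06, 10.67 and 10.55 in carotid body, against 8.06, 7.35 and 7.55 in adrenal medulla. The difference of this bone-inducing ligand was 3.11 ± 0.22 (SE; adjusted p = 0.000115), and the cohorts gave 2.99, 3.32 and 3.01. Gdf10, also known as BMP3b, was 11.43, 12.22 and 12.19 in carotid body, against 9.65, 10.04 and 9.73 in adrenal medulla. It was higher by 2.14 ± 0.23 (SE; adjusted p = 0.000701), with carotid body array 1 the lowest of its tissue. The RefSeq gene order places Gdf2, which encodes BMP9, directly beside Gdf10, and Gdf2 differed by -0.23 ± 0.15 (adjusted p = 0.337). The gap between these neighbours, and between the other neighbouring pairs below, was not tested. Not all neighbouring members differed in this way: Acvr1c and Acvr1 were at -0.60 and -0.94, and Inhbe and Inhbc at 0.06 and -0.03.

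The remaining 12 BMP and GDF ligands were not called. Bmp6, a ligand known for its control of hepcidin in the liver, was 7.36, 7.53 and 7.51 in carotid body, against 6.55, 6.86 and 6.19 in adrenal medulla. Its tissues did not overlap, and its difference of 0.94 ± 0.18 (SE; adjusted p = 0.00811) lay just under 2-fold. Bmp4, the ligand most studied in sympathoadrenal specification, was 8.43, 8.31 and 8.53 in carotid body, against 7.95, 8.30 and 7.56 in adrenal medulla. All carotid body arrays lay above the adrenal medulla arrays, but cohort 2 differed by 0.01 and the gene did not pass (0.49 ± 0.19, adjusted p = 0.11).

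Bmp7 gave a mixed reading. Its brightest probe set was 8.22, 8.77 and 9.37 in carotid body, against 8.31, 8.76 and 8.5 in adrenal medulla, so the tissues overlapped, and it differed by 0.26 (adjusted p = 0.564). A second probe set was called lower in carotid body, at -1.14 (adjusted p = 0.0334), and the third gave -0.85. The direction for Bmp7 therefore depends on the probe set. Differences of the other 9 ligands, Gdf2, Gdf3, Gdf5, Gdf9, Gdf11, Bmp8a, Bmp8b, Bmp10 and Bmp15, were between -0.23 and 0.25. Of these, Gdf5, Bmp8a, Bmp8b, Bmp10 and Bmp15 were among the dim members.

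Of the 3 TGF-beta ligands, 1 was called. Tgfb2 was 8.95, 9.22 and 8.82 in carotid body, against 6.93, 7.14 and 7.29 in adrenal medulla. It was higher by 1.88 ± 0.15 (SE; adjusted p = 0.00022), and all 4 of its probe sets were called higher, at 1.57 to 2.06. Tgfb3 was 8.87, 9.38 and 9.34 in carotid body, against 7.75, 8.68 and 8.44 in adrenal medulla. Its difference of 0.91 ± 0.26 (adjusted p = 0.0381) was under 2-fold, and it was called after quantile normalization (1.02). Tgfb1, the form found in platelets and immune cells, was 5.39, 5.80 and 5.52 in carotid body, against 5.85, 6.91 and 5.86 in adrenal medulla. It did not pass (-0.63 ± 0.29, adjusted p = 0.164), with no overlap between tissues and adrenal medulla array 2 above the other arrays. Without that array its difference was -0.28.

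Among the subunits of activin and inhibin, 1 was called in each direction. Inhba, the beta A subunit that forms activin A, was 7.03, 7.45 and 6.78 in carotid body, against 6.47, 5.98 and 5.66 in adrenal medulla. The difference was 1.05 ± 0.24 (SE; adjusted p = 0.0188). It fell short of the call without carotid body array 2 (0.86, adjusted p = 0.063), adrenal medulla array 2 (1.02, adjusted p = 0.0733) or adrenal medulla array 3 (0.86, adjusted p = 0.0656), and without cohort 2 (0.83, adjusted p = 0.193). It was 0.93 with median-centred arrays and 0.51 as the mean of its probe sets, under 2-fold in both, and its dimmer probe set gave -0.03.

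Inha, the alpha subunit that turns an activin into an inhibin and is made in gonads and adrenal cortex, was 5.52, 6.09 and 5.27 in carotid body, against 7.41, 7.38 and 6.66 in adrenal medulla. It was lower, at a difference of -1.52 ± 0.27 (SE; adjusted p = 0.00618). The adrenal medulla arrays also held the cortex markers. In carotid body array 1, where the cortex marker Star was 12.06 against 3.85 and 3.81 in carotid body arrays 2 and 3, Inha lay between the other carotid body values, and without that array its difference was -1.47. Leaving out a carotid body array does not change the cortex markers in adrenal medulla, and the part of cortex in this difference was not tested. Inhbb, Inhbc and Inhbe were dim and differed by -0.13 to 0.06.

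**Figure D2:**
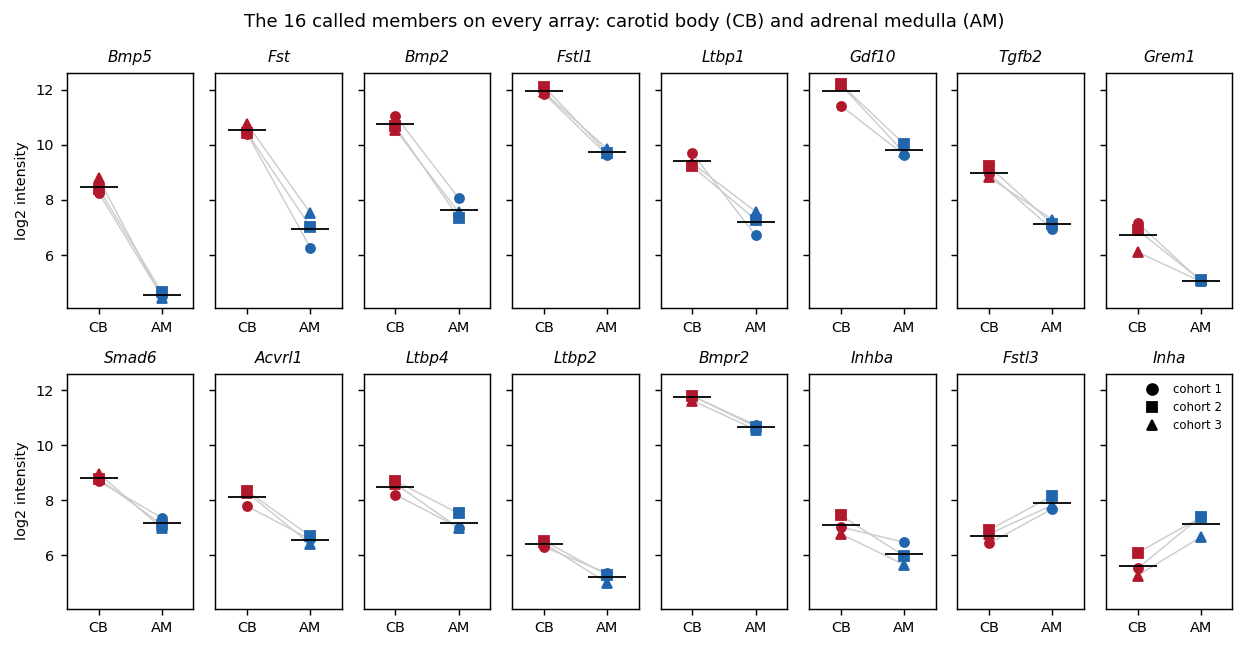
Log2 intensity of the 16 called members on every array, carotid body (CB, red) left of adrenal medulla (AM, blue). Markers stand for the 3 cohorts, grey lines join the arrays of a cohort and black bars are tissue means. No tissue overlaps the other in any of the 16 genes, and levels of different genes are not comparable.

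Of the 4 latent TGF-beta binding proteins, 3 were higher in carotid body. Ltbp1, which anchors latent TGF-beta in the matrix, was 9.70, 9.22 and 9.33 in carotid body, against 6.71, 7.29 and 7.58 in adrenal medulla. Its difference was 2.23 ± 0.24 (SE; adjusted p = 0.000672), with cohort 1 at 2.99 and the other cohorts at 1.94 and 1.75. Its 3 probe sets gave 0.66 to 2.23, and 2 of them were called.

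Ltbp4, which also helps to assemble elastic fibres, was 8.21, 8.70 and 8.59 in carotid body, against 7.01, 7.52 and 7.0 in adrenal medulla (difference 1.32 ± 0.19, adjusted p = 0.00278). Ltbp2, a fibrillin-like matrix protein that does not bind latent TGF-beta, was 6.31, 6.52 and 6.44 in carotid body, against 5.35, 5.28 and 5.0 in adrenal medulla (difference 1.21 ± 0.13, adjusted p = 0.000844). Ltbp3 was not called. It was 11.48, 11.34 and 11.28 in carotid body, against 11.72, 11.49 and 11.61 in adrenal medulla, a difference of -0.24 ± 0.12 (adjusted p = 0.202), and its 4 probe sets ran from -0.71 to 0.73.

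The secreted antagonists were called in both directions. Follistatin, Fst, which binds activins, was 10.41, 10.44 and 10.77 in carotid body, against 6.27, 7.03 and 7.53 in adrenal medulla. The carotid body arrays were tight and the adrenal medulla arrays spread over more than 1 log2 unit. The difference was 3.60 ± 0.30 (SE; adjusted p = 0.000241), or 12.1-fold, and the second probe set gave 3.19. Gremlin 1, Grem1, which binds BMP2 and BMP4, was 7.17, 6.91 and 6.11 in carotid body, against 5.05, 5.09 and 5.04 in adrenal medulla. It was higher by 1.67 ± 0.25 (adjusted p = 0.00322), with carotid body array 3 nearest to adrenal medulla. Without cohort 2 its adjusted p was 0.0749, at a difference of 1.60.

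The follistatin-like activin antagonist Fstl3 was 6.43, 6.92 and 6.78 in carotid body, against 7.69, 8.16 and 7.82 in adrenal medulla. It was lower, at a difference of -1.18 ± 0.18 (SE; adjusted p = 0.0031). Fst and Fstl3, which bind an overlapping set of ligands, were thus called in opposite directions. Chordin, Chrd, was 5.92, 6.03 and 6.26 in carotid body, against 6.64, 6.72 and 6.39 in adrenal medulla, a difference of -0.52 ± 0.14 (adjusted p = 0.0365) that was under 2-fold. Noggin, Nog, was dim, at 4.05, 4.05 and 3.81 in carotid body, against 3.77, 3.81 and 3.71 in adrenal medulla (adjusted p = 0.271).

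Acvrl1 and Bmpr2 were called higher among 12 receptors and co-receptors (16.7%), and 0 were called lower. Over all genes, 5.91% were called higher and 6.08% lower. Acvrl1, the type I receptor for BMP9 and BMP10 that is best known in endothelium, was 7.78, 8.34 and 8.28 in carotid body, against 6.58, 6.70 and 6.41 in adrenal medulla. It was higher by 1.57 ± 0.17 (SE; adjusted p = 0.000811), and its other probe set was called too, at 1.02. The endothelial markers Cdh5, Vwf and Cldn5 were higher by 1.28, 2.41 and 3.97 in the same arrays, and the other 7 of 10 were not called. In RefSeq gene order Acvrl1 lies beside the activin receptor gene Acvr1b, which differed by 0.11 ± 0.16 (adjusted p = 0.695).

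Bmpr2, the BMP type II receptor whose human gene is mutated in heritable pulmonary arterial hypertension, was 11.79, 11.79 and 11.62 in carotid body, against 10.73, 10.67 and 10.57 in adrenal medulla. Its difference of 1.08 ± 0.11 (SE; adjusted p = 0.000661) lay close to 2-fold. It was 0.96 with median-centred arrays and 0.61 as the mean of its probe sets, and not called under either. Tgfbr2, the type II receptor for TGF-beta, was 10.89, 10.999 and 11.02 in carotid body, against 10.31, 10.21 and 10.00 in adrenal medulla. Its difference was 0.80 (adjusted p = 0.0037), and its dimmer probe sets gave -0.04 and 0.01. The activin type II receptors Acvr2a and Acvr2b differed by 0.53 (adjusted p = 0.0268) and -0.02 (adjusted p = 0.93). A dimmer Acvr2a probe set gave -0.34 (adjusted p = 0.464), and with cohort as a block Acvr2a had an adjusted p of 0.0509.

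A 2-fold difference was not reached by any receptor that was lower in carotid body, although 3 passed the adjusted p. The co-receptor Tgfbr3, betaglycan, which presents TGF-beta2 and binds inhibin, was 11.36, 10.98 and 10.86 in carotid body, against 12.02, 12.15 and 11.98 in adrenal medulla. It differed by -0.99 ± 0.15 (SE; adjusted p = 0.00356), and by -1.13 without carotid body array 1, the highest of its tissue and the one with the most cortex marker signal. The part of cortex in this difference was not tested. Tgfbr3 was called with median-centred arrays (-1.10), and its dimmer probe set gave -0.16.

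Acvr1, a type I receptor for BMPs and activins, was 8.91, 9.03 and 9.30 in carotid body, against 10.20, 9.99 and 9.88 in adrenal medulla. Its difference was -0.94 ± 0.15 (adjusted p = 0.00367). A second probe set passed 2-fold at -1.14, and the dimmest gave 0.21 (adjusted p = 0.352). Bmpr1b was dim and differed by -0.62 (adjusted p = 0.0314). Bmpr1a, another BMP type I receptor, was 10.67, 10.60 and 10.67 in carotid body, against 10.11, 10.26 and 10.21 in adrenal medulla. Its difference was 0.45 ± 0.11 (adjusted p = 0.0189), and its 6 probe sets gave -0.07 to 0.70. Tgfbr1, the TGF-beta type I receptor, differed by -0.04 with a 95% interval of -0.38 to 0.29. Acvr1c was dim and did not pass (-0.60, adjusted p = 0.0833).

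**Figure D3:**
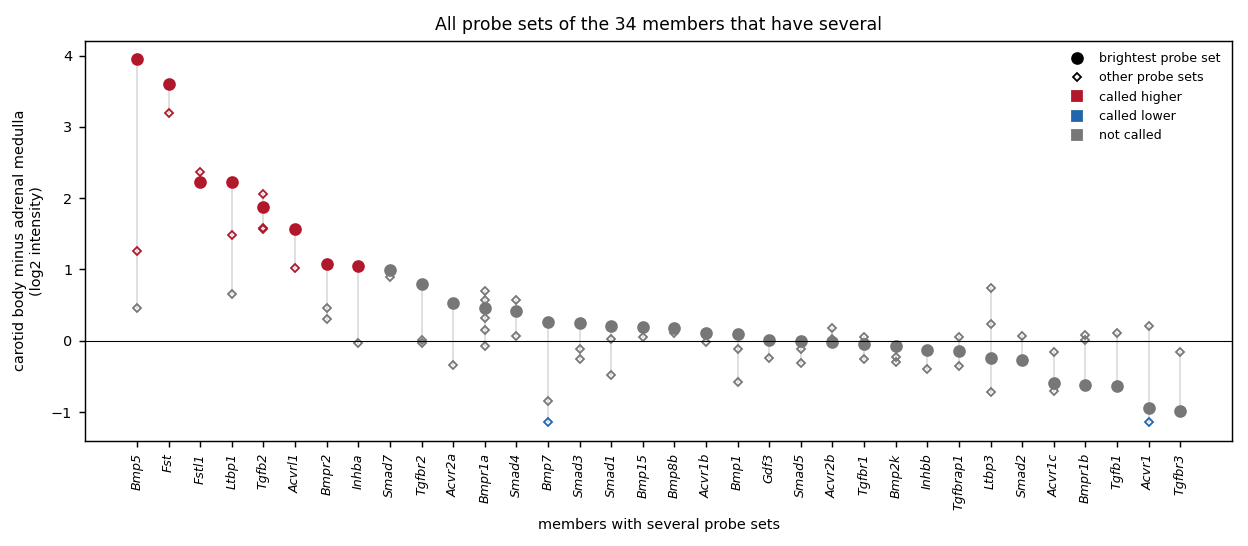
Difference between carotid body and adrenal medulla for every probe set of the 34 members with several, in log2 intensity. Large circles are the brightest probe sets used for each gene and open diamonds the others. Fst, Fstl1, Tgfb2 and Acvrl1 were called by all their probe sets, while Bmp7 had a called lower probe set beside a brightest one near 0.

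None of the 6 receptor-activated and common Smads was called, and none passed an adjusted p of 0.05. At an unadjusted p, Smad4 alone was under 0.05, with 11.17, 11.04 and 11.40 in carotid body, against 10.74, 10.77 and 10.86 in adrenal medulla (difference 0.41 ± 0.13, adjusted p = 0.0548). Its tissues did not overlap. The BMP Smads Smad1 and Smad5 had 95% intervals of -0.13 to 0.55 and -0.27 to 0.26. Those of the TGF-beta Smads Smad2 and Smad3 were -0.59 to 0.06 and -0.17 to 0.66. Smad9 was dim, at 3.85 ± 0.09 in carotid body, against 3.93 ± 0.06 in adrenal medulla (SD, n = 3).

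Both inhibitory Smads were higher in carotid body at the adjusted p. Smad6, which preferentially inhibits BMP signals, was 8.70, 8.78 and 8.97 in carotid body, against 7.36, 7.12 and 6.99 in adrenal medulla. It was called, at 1.66 ± 0.14 (SE; adjusted p = 0.000267), with cohort differences of 1.34, 1.66 and 1.98. Smad3 is the neighbour of Smad6 in RefSeq gene order and differed by 0.25 ± 0.18 (adjusted p = 0.379). Smad7, which inhibits both branches, was 8.88, 9.07 and 9.29 in carotid body, against 8.03, 8.10 and 8.15 in adrenal medulla. Its difference of 0.99 ± 0.13 (adjusted p = 0.002) fell just under 2-fold, and its other probe set gave 0.90. It was called after quantile normalization (1.11).

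The rule by symbol also took in 5 genes that are not components of the pathway core. Fstl1, a secreted glycoprotein related to follistatin by sequence, was 11.87, 12.12 and 11.91 in carotid body, against 9.63, 9.72 and 9.86 in adrenal medulla. It was higher by 2.23 ± 0.12 (SE; adjusted p = 4.54e-05), and its second probe set gave 2.37. Tgfb1i1, a focal adhesion adaptor, differed by 0.95 (adjusted p = 0.00812). Bmp1, a procollagen protease, the kinase gene Bmp2k and the receptor-associated Tgfbrap1 differed by 0.09, -0.08 and -0.14, and none of these 3 passed.

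Promoter sequences are shown for 7 called members of different roles, so that genes higher in carotid body can be compared for known Smad-binding letters. RefSeq (GRCm38.p6) entries were found for 42 of the 57 members, with 52 windows, since some genes have several starts. Within a role, the member shown is the one called higher by the largest difference among those with an entry. Fst had no entry, so Grem1 is shown, and no type I receptor is shown. Each window is the 250 bases before the start of transcription, and for Ltbp1 1 of its 2 starts is shown. The letters searched, on both strands, were GGCGCC and GCCGNCGC, GC-rich sites bound by BMP Smads, and CAGACA, the core of the box bound by Smad3 and Smad4. The first reads the same on both strands, and the GC-rich pair can overlap. Capitals mark the matches.
Bmp5, chr9:75775115-75775364, plus strand: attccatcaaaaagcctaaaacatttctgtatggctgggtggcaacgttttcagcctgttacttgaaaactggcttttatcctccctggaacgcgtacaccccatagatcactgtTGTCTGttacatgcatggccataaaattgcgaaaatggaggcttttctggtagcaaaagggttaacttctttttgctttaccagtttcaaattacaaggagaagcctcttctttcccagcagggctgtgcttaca
Tgfb2, chr1:186705990-186706239, minus strand: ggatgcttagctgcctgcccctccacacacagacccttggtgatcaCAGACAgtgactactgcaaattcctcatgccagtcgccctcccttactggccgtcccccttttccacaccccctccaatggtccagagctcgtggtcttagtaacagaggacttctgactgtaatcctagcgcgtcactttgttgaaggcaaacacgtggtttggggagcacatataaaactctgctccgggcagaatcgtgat
Grem1, chr2:113758649-113758898, minus strand: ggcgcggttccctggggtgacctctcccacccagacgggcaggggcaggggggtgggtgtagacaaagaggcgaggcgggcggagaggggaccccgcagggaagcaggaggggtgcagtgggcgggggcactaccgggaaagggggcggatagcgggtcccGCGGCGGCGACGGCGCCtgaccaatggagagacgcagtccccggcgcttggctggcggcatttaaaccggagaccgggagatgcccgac
Bmpr2, chr1:59764029-59764278, plus strand: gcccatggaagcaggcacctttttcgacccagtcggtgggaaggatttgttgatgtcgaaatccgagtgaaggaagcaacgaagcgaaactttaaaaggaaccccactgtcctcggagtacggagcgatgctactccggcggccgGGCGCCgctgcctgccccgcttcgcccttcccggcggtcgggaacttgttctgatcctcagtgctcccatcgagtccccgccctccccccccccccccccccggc
Smad6, chr9:64022060-64022309, minus strand: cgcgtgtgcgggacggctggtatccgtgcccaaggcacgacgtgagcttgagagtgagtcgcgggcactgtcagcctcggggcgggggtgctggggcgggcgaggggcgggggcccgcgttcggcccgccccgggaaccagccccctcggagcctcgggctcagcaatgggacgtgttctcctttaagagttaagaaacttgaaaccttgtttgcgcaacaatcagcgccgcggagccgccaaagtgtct
Inhba, chr13:16011601-16011850, plus strand: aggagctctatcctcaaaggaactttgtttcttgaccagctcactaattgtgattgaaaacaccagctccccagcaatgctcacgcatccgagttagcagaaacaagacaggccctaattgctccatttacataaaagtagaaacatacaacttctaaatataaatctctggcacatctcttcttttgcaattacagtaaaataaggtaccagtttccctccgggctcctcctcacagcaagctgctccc
Ltbp1, chr17:75005279-75005528, plus strand: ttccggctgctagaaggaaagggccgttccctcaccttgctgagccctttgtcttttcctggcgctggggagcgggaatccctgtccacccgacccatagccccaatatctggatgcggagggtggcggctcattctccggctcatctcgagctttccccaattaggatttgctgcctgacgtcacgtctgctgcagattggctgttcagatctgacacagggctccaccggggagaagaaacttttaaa
The Bmp5 and Tgfb2 windows each held CAGACA once. Read in each gene's own direction, it stood as TGTCTG in Bmp5 and as CAGACA in Tgfb2. The Grem1 window held GGCGCC and GCCGNCGC in a single overlapping stretch, the Bmpr2 window held GGCGCC, and the Smad6, Inhba and Ltbp1 windows held none of the searched letters. Over the members, 11 of 52 windows held GGCGCC (21.2%), against 9.59% of all 32851 windows, 21.2% held GCCGNCGC against 6.89%, and 15.4% held CAGACA against 17.1%. The member windows were also richer in G and C, with a median of 65.8% against 52.4% in all windows. Among members called higher, GGCGCC was in 4 of 14 windows, GCCGNCGC in 2 and CAGACA in 3, and among the other members they were in 7, 9 and 5 of 38. A match is a run of letters and not a bound site.

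Genes that the pathway is known to induce were compared from a separate list of 20, of which 18 were measured. Of these, 12 were called higher in carotid body (66.7%) and 1 lower (5.56%), where 5.91% of all genes were called higher and 6.08% lower. The median difference was 1.34, against -0.04 over all genes. The list was chosen with earlier results of these data known. The inhibitors of DNA binding Id1, Id3 and Id4, classical BMP targets, were all higher. Id1 was 11.12, 11.34 and 11.07 in carotid body, against 9.65, 9.46 and 9.14 in adrenal medulla (1.76 ± 0.16, adjusted p = 0.000332). Id3 was 11.81, 11.92 and 11.91 in carotid body, against 10.37, 10.23 and 10.15 in adrenal medulla (1.62 ± 0.11, adjusted p = 0.000121). Id4 was 8.17, 8.42 and 8.29 in carotid body, against 4.78, 4.00 and 4.2 in adrenal medulla, a difference of 3.97 ± 0.20 (adjusted p = 3.51e-05).

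Id2 was the Id gene that was not called. It was 11.78, 10.91 and 11.27 in carotid body, against 12.17, 11.36 and 11.58 in adrenal medulla, with overlapping tissues and a difference of -0.39 ± 0.27 (adjusted p = 0.372). Within the cohorts it differed by -0.40, -0.45 and -0.31, and with cohort as a block its adjusted p was 0.0587. The BMP-induced homeobox gene Msx1 was 7.36, 7.86 and 7.83 in carotid body, against 4.82, 4.85 and 4.75 in adrenal medulla (2.88 ± 0.16, adjusted p = 4.06e-05). Fibronectin, Fn1, was higher by 3.22 ± 0.17 (adjusted p = 3.92e-05). Fn1, Postn, Tagln, Ccn2 and Tgfbi are also genes of fibroblasts or smooth muscle, whose markers were higher in the same arrays. The list member called lower was the immediate-early gene Junb, at -1.02 ± 0.25 (adjusted p = 0.0213). Its call was lost when carotid body array 2 (-0.89), carotid body array 3 (-0.94) or adrenal medulla array 2 (-0.80) was left out. It was also lost without cohort 2 (-0.66, adjusted p = 0.179) or cohort 3 (-1.03, adjusted p = 0.0788). Quantile normalization (-0.89) and treat at 1.5-fold (adjusted p = 0.479) did not call Junb either. Cdkn2b and Tsc22d1 differed by -0.86 (adjusted p = 0.0116) and -0.67 (adjusted p = 0.00908).

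Extracellular regulators outside the member rule held 7 of 29 genes called higher (24.1%) and 1 lower (3.45%), with a median of 0.44. Over all genes, 5.91% were called higher and 6.08% lower. Chordin-like 1, Chrdl1, a BMP antagonist, was 9.33, 8.85 and 9.08 in carotid body, against 4.59, 4.14 and 4.74 in adrenal medulla. Its difference of 4.60 ± 0.19 (SE; adjusted p = 1.73e-05) was set against a dim adrenal medulla level. Decorin, Dcn, a matrix proteoglycan that binds TGF-beta, was higher by 2.93 ± 0.28 (adjusted p = 0.0004). The BMP antagonist Sostdc1 and the integrin subunit Itgb8, which with the alpha V chain activates latent TGF-beta, were higher by 2.66 (adjusted p = 0.000235) and 2.65 (adjusted p = 4.09e-05). The follistatin-like gene Fstl5 was lower, at -1.25 ± 0.18 (adjusted p = 0.00276).

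**Figure D4:**
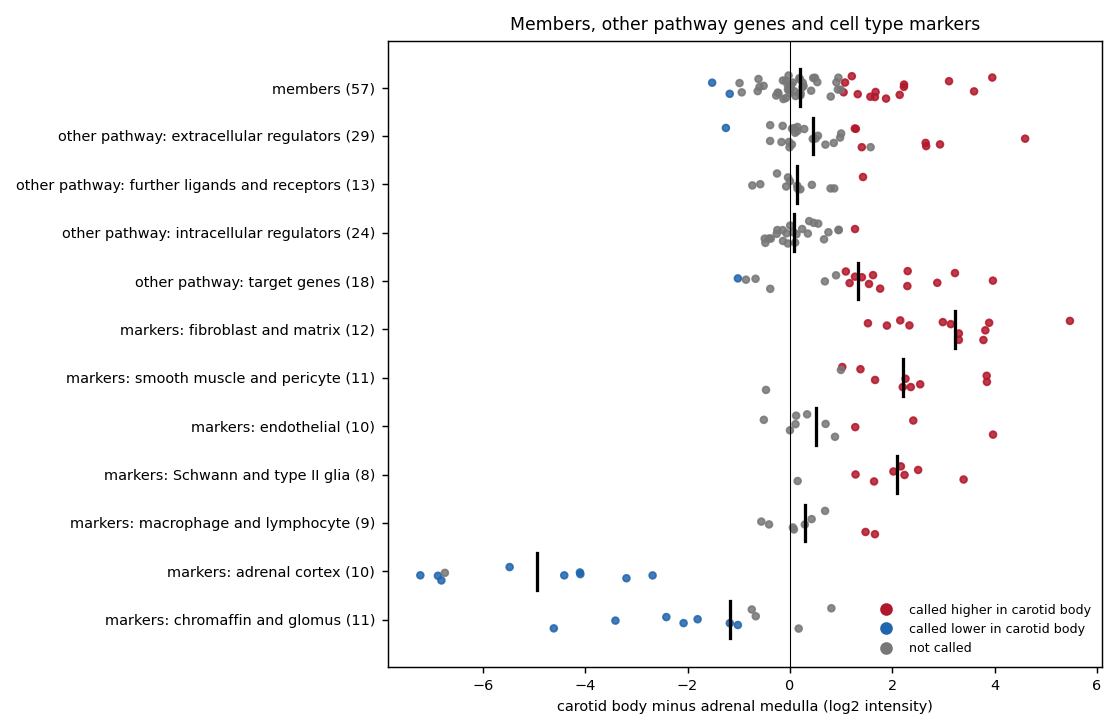
Difference between carotid body and adrenal medulla for each gene of the members, the other pathway lists and the cell type marker lists, in log2 intensity, with the number of measured genes in brackets and a black bar at each median. The target genes have a median of 1.34 and the intracellular regulators one of 0.08, beside 3.22 for fibroblast and matrix markers and -4.95 for adrenal cortex markers.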

How the data were processed

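Total RNA of 6 pooled samples was labelled with a 3' in vitro transcription kit and hybridised to 1-colour arrays, per the labels' protocols. The deposited table holds 1 log2 intensity per probe set and array, and the submitters' processing notes name Affymetrix Expression Console as the authors' software. For how it summarised and normalized the probes, nothing is given in the sources. The values, 2.70 to 14.97, show a log2 scale. The number of arrays limits the precision.

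Of 45101 probe sets, 45037 that were not manufacturer controls were fitted with limma 3.58.1 (R 4.3.3; lmFit and eBayes, 2 tissues, no block), with Benjamini-Hochberg adjustment over all of them. Names came from the platform annotation; all 57 members were found by gene ID in a RefSeq table of GRCm38.p6, with 0 symbols changed. Pairing by cohort rests on the series' own statement. Deviations from tissue means correlated at 0.22, 0.08 and 0.16 in same-cohort pairs and at -0.21 to 0.10 in others. The fit was tested on simulated data.

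Named genes are all called members, a fixed set of receptors, Smads, Ltbp genes, TGF-beta ligands and antagonists, and of the other pathway genes the 5 largest differences each way at an adjusted p under 0.05 with Id1 to Id4, Eng and Bambi. Sostdc1, Itgb8, Postn, Tagln, Ccn2, Tgfbi, Pmepa1, Smurf2, Zfyve9, Tgif2 and Skil were named after their values were seen. Members and lists were chosen with earlier results of these data known. Alternatives were a replicate block, quantile normalization, median-centred arrays, removal of probe sets under the 25th percentile, trend and robust variances, array weights, the mean of a gene's probe sets, no fold threshold, treat (limma) at 1.5-fold, and the loss of single arrays or cohorts. A pseudocount does not apply to log2 values. Scanner files were not used, so background correction was not varied.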

Additional observations from a re-analysis of the deposited data

How the results depend on the processing

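With the cohort as a replicate block, 14 members were called higher and 2 lower, and every named member kept its call or lack of it. The adjusted p alone moved across 0.05 for some uncalled members. Tgfb1 (limma adjusted p = 0.0488) and Acvr1c (0.0436) passed with the block, and Acvr2a (0.0509), Bmpr1b (0.0502) and Chrd (0.0641) did not. Members called higher numbered 12 to 18 over all settings with the fold threshold; leaving out single arrays or cohorts gave 13 to 17. Members called lower numbered 4 with median-centred arrays, 0 with treat against 1.5-fold and 6 with no fold threshold, and 2 to 4 when arrays or cohorts were left out; the 4, without adrenal medulla array 3, came with Acvr1 and Tgfbr3 past 2-fold. With no fold threshold 21 members were higher. Of all genes, treat called 569 lower, and with no fold threshold 1988 were higher and 2995 lower; leaving out arrays or cohorts gave 532 to 1269 lower, the lowest without cohort 2. Other pathway genes called lower numbered 1 after quantile normalization, 0 with treat and 7 with no fold threshold, and 0 to 2 with arrays or cohorts left out; those higher with no fold threshold numbered 35. Some differences near 0 changed sign without being called: Acvr1b (-0.0056 with median-centred arrays), Acvr2b (0.058 as the mean of probe sets, 0.063 after quantile normalization), Ltbp3 (0.0040), Smad1 (-0.082) and Smad3 (-0.044) as means of probe sets, Smad5 (0.0093 with array weights, 0.10 after quantile normalization) and Tgfbr1 (0.014 after quantile normalization). Leaving out arrays or cohorts gave -0.011 to 0.22 for Acvr1b, -0.13 to 0.080 for Acvr2b, -0.076 to 0.054 for Smad5 and -0.20 to 0.15 for Tgfbr1. The causes were not tested. Bmpr1b, Acvr1c, Smad9 and Nog rest on dim probe sets.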

Other observations

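Of 24 intracellular regulators of the pathway, 1 was called higher in carotid body (4.17%) and 0 lower, where 5.91% of all genes were called higher and 6.08% lower. At an adjusted p under 0.05 alone, 7 were higher (29.2%) and 1 lower (4.17%), where 10.9% of all genes were higher and 16.5% lower. The median difference was 0.08, against -0.04 over all genes. The one called was Pmepa1, a TGF-beta-induced gene whose product holds receptor-activated Smads away from the receptor, at 10.20, 10.33 and 10.24 in carotid body, against 8.87, 9.0 and 9.08 in adrenal medulla (difference 1.27 ± 0.11, SE; limma adjusted p = 0.000319). Smurf2, a ubiquitin ligase of the pathway, and Skil, a Smad co-repressor, differed by 0.75 (adjusted p = 0.00407) and 0.67 (adjusted p = 0.00538). Zfyve9, the receptor anchor SARA, and the co-repressor gene Tgif2 both differed by 0.95 (adjusted p = 0.0151 and 0.00337). The regulators named here are all higher ones, picked after their values were seen, and show no trend of the list. The lowest difference in the list was -0.49.

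Of 13 further ligands and receptors, 1 was called higher (7.69%) and 0 lower, where 5.91% of all genes were called higher and 6.08% lower. Bambi, a decoy receptor that lacks a kinase, was 8.26, 8.38 and 8.5 in carotid body, against 7.05, 7.0 and 6.80 in adrenal medulla (1.43 ± 0.12, adjusted p = 0.000299). Endoglin, Eng, a co-receptor of endothelium that works with Acvrl1, differed by 0.79 ± 0.12 (adjusted p = 0.00301). Amhr2, the receptor of anti-Muellerian hormone, differed by -0.74 ± 0.16 (adjusted p = 0.0155) on a dim probe set. Fibroblast, smooth muscle and glial markers were higher in the same carotid body arrays, and their part in these values was not tested.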
